A study of Mus musculus and Rattus norvegicus with 96 samples.

Results

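Interleukin and chemokine genes were followed in frozen and formalin-fixed, paraffin-embedded (FFPE) rat liver and lung. The genes were taken by symbol: every row of the rat liver and rat lung count tables whose symbol began with Il, Ccl or Cxcl and a number, or was Cx3cl1, Tnf or Ifng. In each tissue 116 rows matched, and 32 of them held at least 1 count in any library. The same 32 genes held counts in both tissues, out of 2738 genes with a count in liver and 2851 in lung. The other 84 rows (68 interleukins and their receptors, 8 CC chemokines, 7 CXC chemokines and Cx3cl1) stood at 0 in every library. The assay, TempO-Seq, reads only genes for which a pair of detector oligos was designed, so a row at 0 in all libraries cannot be told apart from a gene without a probe.

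Liver came from male F344 rats and lung from male WKY rats, all labelled as vehicle controls, so strain and tissue cannot be told apart. Each tissue was frozen (FR, 6 liver and 5 lung libraries used), embedded after freezing (FR > FFPE, 6 libraries each), or fixed directly without freezing (FFPE, 6 libraries each). The fixative was formalin at 10%. It acted for 18 to 24 h in both FR > FFPE groups and in FFPE liver, and for 1 year in FFPE lung. Libraries titled as RNA came from frozen tissue and libraries titled as FFPE came from embedded tissue. The protocol describes deparaffinized lysates for FFPE material, so the preparation and the preservation cannot be told apart in any comparison with FR. FFPE against FR > FFPE compares lysates with lysates. The labels name no animals or ages, and p-values measure only the spread between these samples, which may be technical.

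Cytokines are secreted proteins through which immune, epithelial and stromal cells signal to each other. Interleukins act through receptor chains that are shared in part: Il2rg is the common gamma chain of several receptors, and Il4r pairs with Il13ra1 in the receptor that binds Il4 and Il13. Chemokines guide cells along gradients and are grouped as CC or CXC by the spacing of their first cysteines. Many of these genes are known to be nearly silent in resting tissue and to be transcribed quickly after injury or a microbial signal. Others, such as Cxcl12 and Il18, are known as constitutive products of stromal or epithelial cells.

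Library totals fell with embedding, and this sets the precision of every value given below. Totals were 3040915 to 3970187 counts in FR liver, 2156625 to 3898088 in FR > FFPE liver and 139475 to 889128 in FFPE liver. In lung they were 2013607 to 2505947, 802686 to 1786809 and 226751 to 1634580 in the same order. A sixth frozen lung library held 12 counts, none of them in these genes, and was left out. A single count was therefore worth 0.252 to 0.329 CPM (the count scaled to a common column total) in FR liver and 1.125 to 7.17 CPM in FFPE liver. The tissues carried their defining transcripts: 11 hepatocyte genes summed to between 244981 and 298173 CPM in FR liver and to 130 to 254 CPM in FR lung. Only 1 of 11 listed lung epithelial genes, Lamp3, held counts, at a median of 7919 CPM in FR lung and 0 in FR liver. In bulk tissue, fewer cells of a type and less RNA per cell cannot be told apart.

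In frozen liver 24 of the 32 genes averaged under 10 CPM (75.0%), against 53.3% of all 2738 genes with a count. Under 1 CPM were 14 of the 32 (43.8%) and 863 of all 2738 genes (31.5%). The summed level of the 32 had a median of 695.0 CPM (range 614.5 to 799.3). The sum rose to a median of 975.15 CPM in FR > FFPE liver (857.8 to 1191.3) and 1812.3 CPM in FFPE liver (1232.6 to 3746.4), with no overlap between the groups. In lung the sums overlapped, with medians of 3155.6 CPM in FR, 3579.45 in FR > FFPE and 3342.25 in FFPE.

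The number of members seen per library rose with embedding although depth fell. FR liver libraries showed 23 to 25 of the 32 genes with at least 1 count, FR > FFPE liver 29 to 32 and FFPE liver 30 to 32. When every library was thinned to 139475 counts, the numbers were 8 to 16, 19 to 26 and 23 to 31. Thinned lung libraries showed 20 to 24 members in FR, 27 to 32 in FR > FFPE and 27 to 32 in FFPE. All genes moved the same way, from 1470 to 1531 genes per thinned FR liver library to 2139 to 2328 in FFPE liver.

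**Figure D1:**
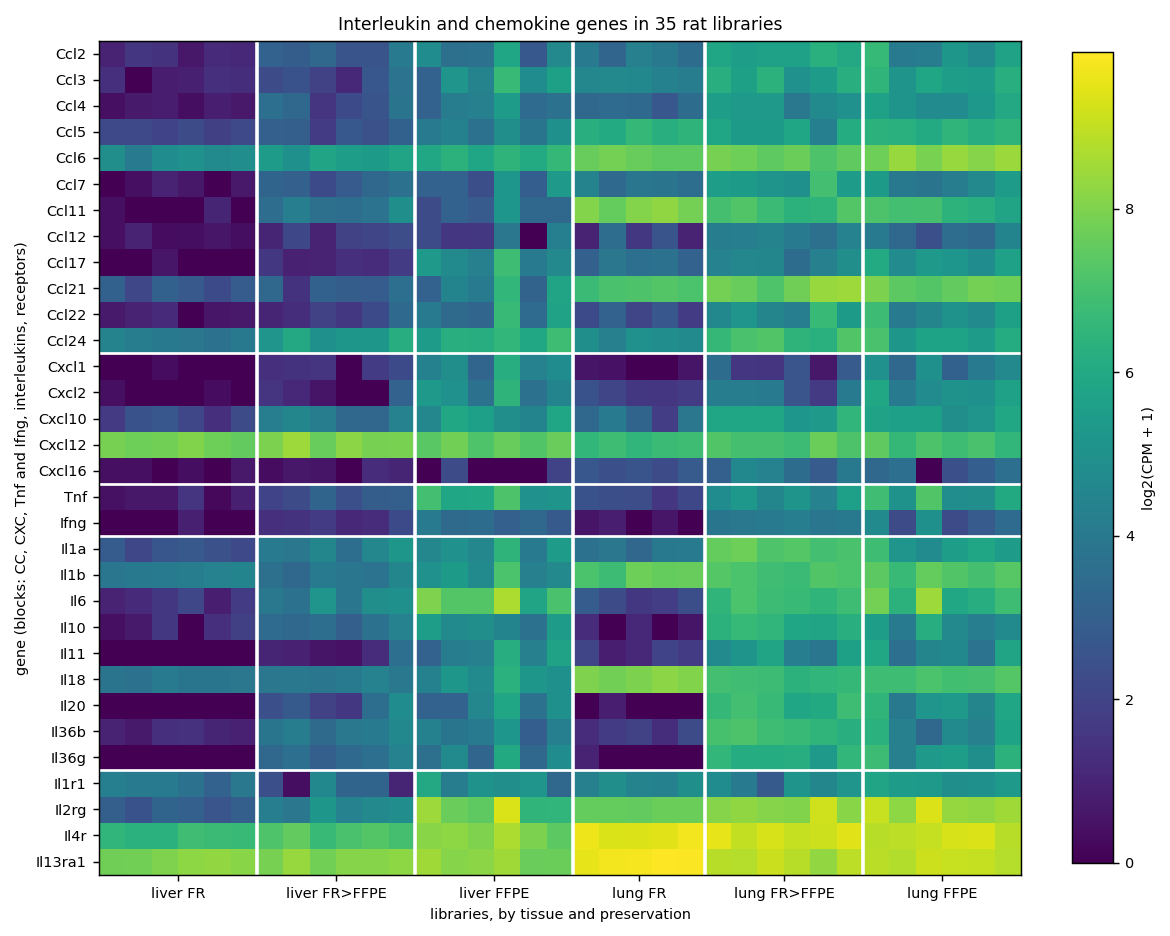
Level of the 32 genes, as log2(CPM + 1) on the colour scale, in each of the 35 libraries (columns, grouped by tissue and preservation). White horizontal lines separate CC chemokines, CXC chemokines, Tnf with Ifng, interleukin ligands and receptors. The dark cells of the frozen groups, such as Il20 and Il36g, are lighter in both embedded groups, while Il4r and Il13ra1 are bright throughout.

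Against frozen tissue, both kinds of embedded tissue showed more members rising than falling. A gene was called when its Benjamini-Hochberg adjusted p was under 0.05 over all genes of the table and its fold change was at least 2, by the quasi-likelihood test of edgeR with TMM-scaled library sizes. In liver FR > FFPE vs. FR, 20 of 30 tested members rose and 2 fell, against 33.6% and 16.3% of all 2281 tested genes. In liver FFPE vs. FR, 20 rose and 2 fell, against 39.9% and 24.4% of all genes. In lung FR > FFPE vs. FR, 18 of 32 rose and 5 fell, against 37.8% and 18.3% of 2322 genes. In lung FFPE vs. FR, 15 rose and 4 fell, against 36.2% and 17.1%. Median log2 changes over members tested were 1.70, 3.00, 1.33 and 0.81 in this order, and 0.37, 0.35, 0.35 and 0.24 over all tested genes. Cxcl16 and Ccl12 were too low in liver to be tested.

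The split of rises and falls depended on the scaling. With column totals in place of TMM, the median over all genes moved to 1.08 and 1.97 in liver and 1.06 and 0.99 in lung, in the same order of comparisons. The members rising and falling were then 21 and 0, 27 and 0, 20 and 2, and 20 and 2. Of 126 member values not called with TMM over the 9 comparisons reported, 40 were called on column totals, all of them as rises. Of all calls, 90.6%, 95.5%, 87.9% and 92.1% were rises on column totals, against 67.4%, 62.1%, 67.4% and 67.9% with TMM. CPM values given below are per column total, and log2 changes are with TMM unless said otherwise.

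**Figure D2:**
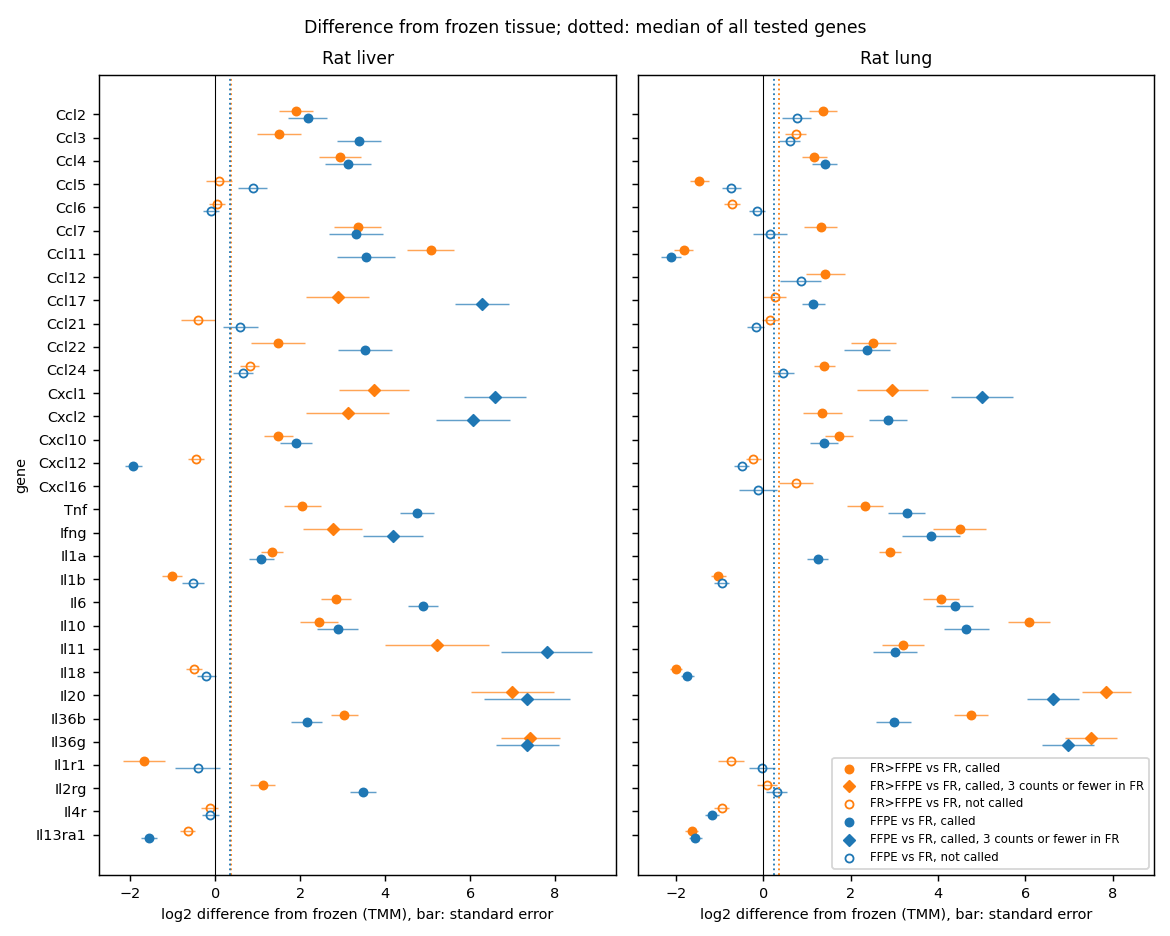
Log2 difference from frozen tissue with TMM scaling for each gene in liver (left) and lung (right). Points are edgeR estimates, bars are standard errors, filled points were called, dotted lines are the medians of all tested genes, and diamonds have 3 counts or fewer in FR, where the estimate is not a bound. Interleukin ligands from Il6 to Il36g lie to the right in both tissues, apart from Il18, and Il13ra1 lies to the left.

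Among interleukin ligands, 7 of 9 rose in each of the 4 comparisons with frozen tissue, against 33.6% to 39.9% of all tested genes. Il20 and Il36g, ligands best known from skin and other epithelia, went from 0 to 2 counts over a frozen group to a count in every embedded library. Il20 had 0 counts in all 6 FR liver libraries, out of 20904501 counts, and lay between 2.04 and 27.0 CPM in FR > FFPE (median 5.22) and 7.78 and 57.4 CPM in FFPE (median 17.6). Set against a floor of 3 counts over the FR group, this was at least 61.8-fold higher in FR > FFPE liver and at least 161-fold higher in FFPE liver. Library 78 of FR > FFPE liver held 80 of the group's 153 counts, and without it the first bound was 36.5-fold. In lung, Il20 had 2 counts in 1 of 5 FR libraries and 0 in the others, against 56.1 to 122 CPM in FR > FFPE (median 99.5) and 15.2 to 88.3 CPM in FFPE (median 37.3). Pooled over libraries, the FR > FFPE to FR ratio was 509 (95% interval 140.3 to 4210) and the FFPE to FR ratio was 211 (57.7 to 1753). Such intervals and floors cover counting error only, and reads are counted without molecular identifiers.

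Il36g followed the same course. It was at 0 in every FR liver library and at 6.96 to 19.9 CPM in FR > FFPE (median 10.3), and 8.31 to 64.5 CPM in FFPE (median 18.5), at least 79.2-fold and at least 170-fold higher. FR lung held 2 counts, in 1 library, and the embedded groups held 39.7 to 93.4 CPM (median 70.0) and 19.0 to 111 CPM (median 43.0). Il36b, its neighbour on chromosome 3 at a distance of 74.3 kb and another ligand of the same receptor, was measurable in FR. Its median rose from 1.01 CPM in FR liver to 15.6 in FR > FFPE and 17.5 in FFPE, with log2 changes of 3.04 (SE 0.31, edgeR adjusted p = 1.68e-08) and 2.15 (SE 0.36, adjusted p = 6.88e-06). In FR lung it stood at 1.37, 2.39, 2.85, 1.49 and 3.79 CPM, and in FR > FFPE lung at 75.99 to 139 CPM, a log2 change of 4.76 (SE 0.39, adjusted p = 1.19e-09).

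Il6, a main inducer of the hepatic acute-phase response, was among the members with the largest changes. FR liver ranged from 0.798 to 3.34 CPM (median 1.67), FR > FFPE from 11.9 to 35.2 (median 21.8) and FFPE from 53.99 to 409 (median 153). No library of one group overlapped another, and the log2 changes from FR were 2.84 (SE 0.36, edgeR adjusted p = 3.02e-07) and 4.89 (SE 0.36, adjusted p = 2.11e-11). The 5 FR lung libraries stood at 6.41, 3.99, 2.04, 2.48 and 4.27 CPM. FR > FFPE lung lay at 88.4 to 137 CPM and FFPE lung at 59.4 to 353 CPM, with log2 changes of 4.07 (SE 0.42, adjusted p = 2.73e-08) and 4.38 (SE 0.43, adjusted p = 1.83e-08).

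Il10, which restrains inflammation, rose more in lung than in liver in FR > FFPE. FR lung held 3, 0, 3, 0 and 1 counts of it, while FR > FFPE lung lay at 53.7 to 100.2 CPM (median 77.2) and FFPE lung at 16.5 to 70.6 (median 25.1). The log2 changes were 6.09 (SE 0.48, edgeR adjusted p = 7.25e-10) and 4.65 (SE 0.51, adjusted p = 7.61e-08). In liver the medians were 1.13, 10.6 and 27.2 CPM in FR, FR > FFPE and FFPE, with log2 changes of 2.44 (SE 0.44, adjusted p = 3.39e-05) and 2.88 (SE 0.48, adjusted p = 5.15e-06).

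Il11, a cytokine linked to fibroblast activation, had 0 counts in FR liver, 0.407 to 11.1 CPM in FR > FFPE (median 0.947) and 7.78 to 71.7 CPM in FFPE (median 18.9), at least 17.7-fold and at least 217-fold higher. One FR > FFPE liver library, number 78, gave 33 of the group's 45 counts, and without it the bound was 5.76-fold. In lung Il11 went from 0.798 to 3.20 CPM in FR to 14.0 to 53.9 in FR > FFPE, a log2 change of 3.20 (SE 0.49, edgeR adjusted p = 6.08e-06).

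The interleukin 1 pair split. Il1a and Il1b, alarm cytokines whose genes lie 40.2 kb apart on chromosome 3, both signal through Il1r1. Il1a rose in all 4 comparisons, from 8.55 to 16.1 CPM in FR lung to 124 to 208 CPM in FR > FFPE lung (log2 change 2.90, SE 0.25, edgeR adjusted p = 2.76e-09), and from a median of 4.90 in FR liver to 19.6 in FR > FFPE liver (1.34, SE 0.26, adjusted p = 5.99e-05). In liver FFPE vs. FR its log2 change of 1.08 (SE 0.29) dropped to 0.93, under the fold criterion, without the shallowest library, number 82. Il1b, at 13.7 to 21.1 CPM in FR liver and 138, 111, 212, 187 and 194 CPM in FR lung, fell in FR > FFPE by 1.02 in liver (SE 0.23, adjusted p = 0.000455) and by 1.03 in lung (SE 0.17, adjusted p = 1.41e-05) on the log2 scale. Neither fall was called on column totals, where the changes were -0.27 and -0.33, and the lung fall was -0.94, -1.0 and -0.97, under the fold criterion, without FR library 51, 52 or 53 in turn.

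Il18, a constitutive epithelial cytokine that caspase-1 activates, was the only ligand of the interleukins that fell in both lung comparisons, on TMM and on column totals. Its 5 FR lung libraries stood at 253, 225, 251, 294 and 260 CPM, all above the 82.1 to 125 CPM of FR > FFPE lung and the 113 to 157 CPM of FFPE lung. The log2 changes were -2.01 (SE 0.14, edgeR adjusted p = 2.46e-10) and -1.75 (SE 0.15, adjusted p = 3.39e-09), and -1.31 and -1.01 on column totals. In liver its medians were 13.3, 14.8 and 33.7 CPM, and it was not called in either comparison with FR (log2 change -0.51 and -0.21, and 0.20 and 1.39 on column totals, where the second was called).

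Tnf and Ifng, the principal macrophage and lymphocyte activators among these genes, rose in all 4 comparisons. Tnf ran from 0.148 to 1.86 CPM in FR liver, through 3.01 to 8.28 in FR > FFPE, to 31.4 to 140.0 in FFPE, without overlap between groups. By edgeR, its log2 change from FR was 2.05 after embedding of frozen tissue (SE 0.43, adjusted p = 0.000202) and 4.75 after direct fixation (SE 0.41, adjusted p = 2.38e-10). FR lung libraries stood at 4.597, 4.23, 4.09, 1.94 and 3.44 CPM, against 20.0 to 47.3 in FR > FFPE (log2 change 2.32, SE 0.41) and 27.9 to 150.1 in FFPE (3.28, SE 0.42). The deposited Tnf values were not whole numbers in 35 of 35 libraries, unlike 29 of the other members, and were rounded for the test.

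Ifng had 3 counts in FR liver, all in 1 library, against 1.22 to 3.71 CPM in FR > FFPE and 6.10 to 15.6 in FFPE. The pooled ratios to FR were 13.8 (95% interval 4.35 to 70.4) and 66.8 (20.4 to 346). FR lung held 1, 2, 0, 1 and 0 counts, and FR > FFPE lung a narrow 13.5 to 17.7 CPM (log2 change 4.50, SE 0.61, edgeR adjusted p = 1.11e-06). FFPE lung ranged more widely, from 3.75 to 30.9 CPM (3.84, SE 0.66).

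Of the CXC chemokines, 4 tested in liver and 5 in lung, 3 rose in every comparison with FR, where 33.6% to 39.9% of all tested genes rose. They were the neutrophil attractants Cxcl1 and Cxcl2, 10.3 kb apart on chromosome 14, and the interferon-induced T cell attractant Cxcl10. Cxcl1 had 1 count in FR liver and 3 in FR lung. It was at 0 to 3.71 CPM in FR > FFPE liver (median 1.79) and 8.31 to 71.7 CPM in FFPE liver (median 23.8), with pooled ratios to FR of 39.1 (95% interval 6.53 to 1591) and 489 (84.5 to 19622). In lung its medians were 3.59 CPM in FR > FFPE and 20.6 in FFPE, with pooled ratios of 14.5 (4.50 to 74.4) and 59.9 (19.8 to 296). The first was 9.62 without library 55, which held 13 of 29 counts.

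Cxcl2 had 2 counts in FR liver, and its pooled ratio was 21.4 in FR > FFPE (5.49 to 183.4) and 248 in FFPE liver (65.9 to 2097). Library 78 held 23 of its 35 counts in FR > FFPE liver. Without that library the pooled ratio was 8.86 and Cxcl2 was no longer called (log2 change 2.06, edgeR adjusted p = 0.0573). In lung Cxcl2 went from 4.58, 3.19, 2.04, 1.99 and 2.37 CPM in FR to 2.24 to 17.4 in FR > FFPE (median 16.1) and 16.5 to 61.1 in FFPE (median 31.6). Cxcl10 rose from a median of 3.58 CPM in FR liver to 17.2 and 38.2, with log2 changes of 1.48 (SE 0.34, adjusted p = 0.000441) and 1.90 (SE 0.37, adjusted p = 3.87e-05). In lung it rose from 9.15, 16.0, 8.14, 2.48 and 14.2 CPM to medians of 55.3 and 47.7.

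Cxcl12, the stromal factor that holds leukocytes and progenitors in place, had the highest CPM of the chemokines in FR liver, an order that also carries each probe's efficiency. It measured 186 to 259 CPM in FR liver, 194 to 349 in FR > FFPE and 145 to 220.0 in FFPE. The fall of 1.93 (SE 0.20, edgeR adjusted p = 4.57e-09) on the log2 scale in FFPE liver was not called on column totals (-0.32, adjusted p = 0.0624). In lung its medians were 108, 135 and 123 CPM, with log2 changes of -0.23 and -0.50 and no call. Cxcl16 was low throughout, at most 3.89 CPM in liver and 23.8 in lung. Against FR it was called in lung on column totals alone, in FR > FFPE (1.44).

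Of the CC chemokines in liver, 7 of 11 tested rose in FR > FFPE and 7 in FFPE, and none fell. In lung 6 of 12 rose and 2 fell in FR > FFPE, while 3 rose and 1 fell in FFPE. Over all tested genes, in FR > FFPE and FFPE in turn, 33.6% and 39.9% rose in liver and 37.8% and 36.2% in lung. The shares that fell were 16.3% and 24.4% in liver and 18.3% and 17.1% in lung. The monocyte attractants Ccl2 and Ccl7, 9.2 kb apart on chromosome 10, both rose in both liver comparisons. Ccl2 went from a median of 1.25 CPM in FR liver to 7.17 in FR > FFPE and 18.4 in FFPE. The log2 changes were 1.89 (SE 0.40) and 2.17 (SE 0.45), with adjusted p of 0.000215 and 0.000101 by edgeR. In lung it stood at 16.0, 8.38, 18.7, 14.9 and 10.4 CPM in FR and at 45.6 to 77.2 in FR > FFPE (1.37, SE 0.32, adjusted p = 0.000658), and in FFPE lung (16.5 to 99.6 CPM) was called on column totals alone (1.57).

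Ccl7 had 9 counts in FR liver, in 4 of 6 libraries, and 3.71 to 11.8 CPM in FR > FFPE, a log2 change of 3.35 (SE 0.56, edgeR adjusted p = 1.35e-05). In lung its FR > FFPE level was 30.1 to 124 CPM with a median of 42.0. The highest value came from library 59, and without it the log2 change from FR went from 1.31 (SE 0.37) to 0.77 (adjusted p = 0.0147), under the fold criterion.

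Ccl3 and Ccl4, macrophage inflammatory proteins 13.5 kb apart on chromosome 10, both rose in liver. Ccl4 went from 0.278 to 0.798 CPM in FR liver to 1.85 to 13.2 in FR > FFPE (log2 change 2.93, SE 0.50) and 7.78 to 43.0 in FFPE (3.12, SE 0.54). Ccl3 reached a median of 31.0 CPM in FFPE liver from 1.15 in FR (3.39, SE 0.52, edgeR adjusted p = 1.85e-06). In lung Ccl4 rose in both embedded groups, from 9.15, 9.98, 9.36, 5.46 and 10.4 CPM to medians of 35.4 and 36.1. Ccl3 in lung changed by 0.74 (SE 0.24) and 0.60 (SE 0.24) with no call, and by 1.44 and 1.38 on column totals, both called.

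Ccl17 and Ccl22, ligands of one receptor whose genes lie 53.5 kb apart on chromosome 19, both rose in FFPE liver. The highest FFPE liver value of both came from library 82, the shallowest. Ccl17 had 2 counts in FR liver, 0.867 to 2.36 CPM in FR > FFPE and 15.7 to 115 CPM in FFPE (median 24.9). Its pooled ratio of FFPE to FR was 281 (95% interval 74.8 to 2362). Ccl22 rose from 0 to 1.26 CPM in FR liver to 8.31 to 100.4 in FFPE (median 12.8, log2 change 3.52, SE 0.63, edgeR adjusted p = 1.57e-05). Its smaller change in FR > FFPE liver (1.47, SE 0.63, adjusted p = 0.0383) was lost without library 78 (0.93, adjusted p = 0.191). In lung Ccl22 rose by 2.52 (SE 0.52) and 2.38 (SE 0.53).

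Ccl11, the eosinophil attractant eotaxin, moved in opposite directions in the tissues. FR lung libraries stood at 268, 192, 271, 311 and 227 CPM, above every FR > FFPE library (82.1 to 154) and every FFPE library (53.8 to 140.4). The log2 changes were -1.83 (SE 0.21, edgeR adjusted p = 1.63e-07) and -2.12 (SE 0.22, adjusted p = 4.56e-08), and -1.11 and -1.37 on column totals, both still called. FR liver held 5 counts in all, and FR > FFPE liver 10.5 to 29.4 CPM (log2 change 5.07, SE 0.55, adjusted p = 3.42e-08) with FFPE liver at 3.89 to 35.8 (3.55, SE 0.68, adjusted p = 3.42e-05).

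Ccl6, a macrophage and neutrophil product, had log2 changes between -0.72 and 0.04 in the 4 comparisons and no call with TMM. On column totals it rose by 1.49 in FFPE liver, from 26.2 ± 5.55 (SD, n = 6) to 74.7 ± 16.2 CPM (SD, n = 6). Ccl21, which guides T cells and dendritic cells into lymphoid tissue, measured 108, 133, 142, 152 and 138 CPM in FR lung and had medians of 223 and 196 CPM in the embedded groups, again with no call with TMM. In FFPE liver it was called on column totals (2.34). Ccl5, a T cell product, fell in FR > FFPE lung by 1.47 (SE 0.22, edgeR adjusted p = 5.30e-06) on the log2 scale, from 65.05 to 96.9 CPM to 18.5 to 69.8, and its change on column totals was -0.75. With TMM, Ccl24 was called in FR > FFPE lung and in no other comparison with FR, while on column totals it rose in all 4 (1.52, 2.25, 2.10 and 1.25). Ccl12, tested in lung only, rose in FR > FFPE lung (1.42, SE 0.45), and in FFPE lung it was called on column totals alone (1.58). Whether the absence of a call elsewhere differs from these calls was not tested for each gene.

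Of the 4 receptors, 1 rose and 1 fell in each liver comparison with FR, and in lung none rose while 1 fell in FR > FFPE and 2 in FFPE. Over all tested genes 33.6% to 39.9% rose and 16.3% to 24.4% fell in the 4 comparisons. Il13ra1 and Il4r had the highest CPM of the members in FR lung, at 872 ± 78.9 and 735 ± 86.9 CPM (SD, n = 5), with overlapping ranges. The row named Il13ra1 is placed on chromosome 11, from 74862804 to 74866452. Members were taken by symbol, and whether this row is the receptor gene itself was not checked. In the 4 comparisons with FR, the log2 changes of Il13ra1 were -0.65, -1.56, -1.64 and -1.56 and those of Il4r were -0.13, -0.12, -0.96 and -1.18. In lung the FR libraries of Il13ra1, at 755, 846, 879, 965 and 916 CPM, lay above all 12 embedded libraries, which ran from 320 to 573 CPM. In liver Il13ra1 held 218 to 317 CPM in FR and 202 to 362 CPM in FFPE. Its fall in FFPE liver turned to a change of 0.08 on column totals, and in lung -0.94 and -0.81 on column totals fell short of the fold criterion. The Il4r fall in FFPE lung was not called on column totals (-0.44), where Il4r rose in FFPE liver (1.51), from 95.99 to 278 CPM on average.

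Il2rg rose in liver and was not called in lung with TMM. FR liver had 4.604 to 8.06 CPM, FR > FFPE 14.5 to 37.1 (log2 change 1.11, SE 0.30, edgeR adjusted p = 0.00242) and FFPE 87.7 to 652 (3.47, SE 0.31, adjusted p = 4.03e-10), with no overlap. FR lung stood at 189, 192, 184, 207 and 203 CPM, and the embedded groups at medians of 278 and 344.2 CPM (0.08, SE 0.22, and 0.30, SE 0.23). On column totals it rose in FFPE lung (1.08). Il1r1, the receptor for Il1a and Il1b, fell in FR > FFPE liver by 1.68 (SE 0.50, adjusted p = 0.00423), where its 6 libraries ran from 0.289 to 23.6 CPM. That call was lost on column totals (-0.93, adjusted p = 0.131).

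Of the 20 members that rose in liver FR > FFPE vs. FR and the 18 in lung, 16 were shared, which is 80.0% of the liver and 88.9% of the lung members. For FFPE vs. FR, 15 were shared, 75.0% of the 20 liver members and 100.0% of the 15 lung members. Among all risen genes, 550 were shared in FR > FFPE vs. FR (71.7% of those in liver and 62.7% in lung) and 596 in FFPE vs. FR (65.4% and 70.9%). Whether the members' shares differ from these was not tested. Among them were Cxcl1, Cxcl2, Tnf, Ifng, Il6, Il10, Il20 and Il36g in either comparison. FR > FFPE and FFPE share their FR libraries within each tissue.

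Direct fixation was then set against fixation after freezing, lysate against lysate. In liver, where both fixations lasted 18 to 24 h, 11 of 30 members were higher in FFPE and 2 lower, against 23.2% and 10.9% of all tested genes. Median log2 differences were 0.43 over members and 0.07 over all genes. The largest were Ccl17 (3.40, SE 0.47, edgeR adjusted p = 1.68e-06), Cxcl2 (2.95, SE 0.62), Cxcl1 (2.85, SE 0.48), Tnf (2.70, SE 0.34) and Il11 (2.57, SE 0.63), with Il2rg (2.36, SE 0.29) and Il6 (2.05, SE 0.29) after them. Ccl11 and Cxcl12 were lower, by 1.51 (SE 0.45) and 1.48 (SE 0.20) on the log2 scale. On column totals the counts were 19 higher and 0 lower, with 97.3% of all calls as rises against 68% with TMM. Ccl21 was called at 1.01 (adjusted p = 0.0477), and not without library 82 (0.74, adjusted p = 0.163).

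In lung, where direct fixation lasted 1 year, 2 of 32 members were higher in FFPE and 5 lower, against 6.2% and 6.59% of all tested genes. Cxcl1 (2.07, SE 0.50, edgeR adjusted p = 0.00384) and Cxcl2 (1.5, SE 0.37, adjusted p = 0.00453) were higher. Il36b (-1.77, SE 0.30), Il1a (-1.66, SE 0.23), Il10 (-1.43, SE 0.32), Il20 (-1.23, SE 0.30) and Ccl7 (-1.15, SE 0.37) were lower, the last not without library 59 (-0.61, adjusted p = 0.0871). Fixation time and the freezing step cannot be told apart here.

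The counts behind these levels did not always grow with the library. In FFPE liver, where totals spanned 6.37-fold, Il6 had 44 to 79 counts per library, a range of 1.796-fold. Of 819 genes with at least 20 counts in each of these libraries, 5.1% ranged under 2-fold, and their median range was 4.82-fold. In FFPE lung, with a total range of 7.21-fold, Il6 had 64 to 117 counts, a range of 1.83-fold, against 0.9% of 1282 genes under 2-fold. Over all 12 embedded liver libraries, with totals 27.9-fold apart, Tnf ranged 2.95-fold in counts, Il6 2.68-fold and Il2rg 3.43-fold. These were the smallest count ranges among members with a count in all 12. Over the 12 embedded lung libraries, with totals 7.88-fold apart, Tnf ranged 2.17-fold, Il6 2.875-fold and Il2rg 6.87-fold. The share of all genes with so small a range over 12 libraries was not counted.

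Il13ra1 and Cxcl12, the 2 highest members in FR liver, spread differently. Over the same 12 embedded liver libraries Il13ra1 ranged 23.1-fold in counts and 1.79-fold in CPM, and Cxcl12 ranged 44.7-fold in counts and 2.40-fold in CPM. The CPM ranges of Il6, Tnf and Il2rg were 34.5-fold, 46.6-fold and 45.1-fold. Library 82, the shallowest, had the highest CPM of FFPE liver in 20 of 30 members (66.7%), and in 61.2% of 2232 genes with at least 20 counts over the group. The median ratio of its CPM to that of the other FFPE libraries was 3.53 over members and 1.69 over all genes. How far library depth sets the FFPE levels of single members was not tested.

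**Figure D3:**
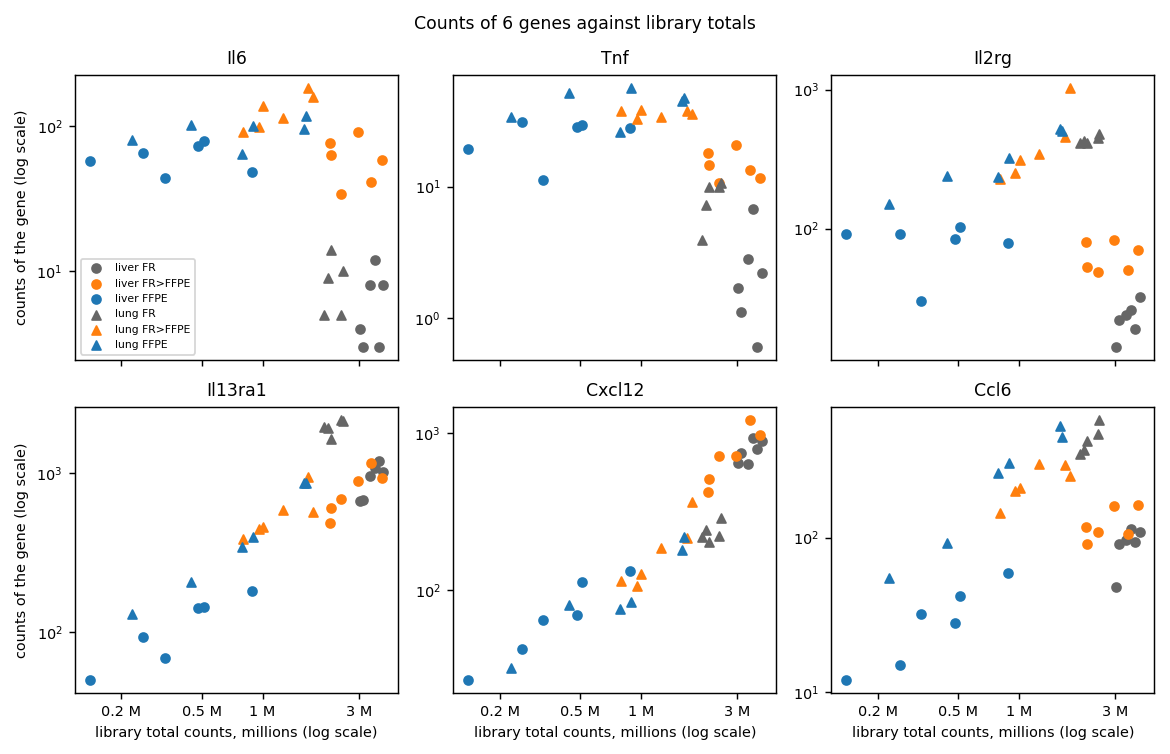
Counts of 6 members against the library total, both on log scales, with circles for liver, triangles for lung and grey, orange and blue for FR, FR > FFPE and FFPE. Il13ra1 and Cxcl12 counts climb with the total in embedded libraries, while Il6 lies between 44 and 79 in FFPE liver across 6.37-fold of depth. Il6 lies between 34 and 91 in FR > FFPE liver and between 3 and 12 in FR liver, groups whose totals overlap.

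Genes listed as markers of organs that were not sampled gained signal as well. Of 15 listed brain, retina and muscle genes, 7 held counts. Their sum had a median of 2.65 CPM in FR liver, 24.9 in FR > FFPE and 128 in FFPE, and in lung of 7.74, 299 and 252 CPM. The liver sums ran from 2.345 to 3.62, 16.9 to 76.7 and 74.2 to 358 CPM. In lung the sums ran from 3.59 to 10.4, 212 to 2512 and 78.5 to 360 CPM. Against FR, 5 of 6 tested rose in FR > FFPE liver and 6 of 6 in FFPE liver, and 7 of 7 rose in each lung comparison, where 33.6% to 39.9% of all tested genes rose over the 4 comparisons. Snap25, a synaptic protein gene, and Gad1, which makes the transmitter GABA, were at 0 in FR liver and at medians of 8.75 and 2.55 CPM in FR > FFPE and 6.70 and 14.9 CPM in FFPE liver. In lung Gad1 went from 0 in FR to 45.9 to 86.3 CPM in FR > FFPE. The muscle genes Myh7 and Mylpf already averaged 1 to 10 CPM in FR lung, and their FR > FFPE lung means were 44.5 and 619 CPM, not in this order of names. Whether any muscle was present in the lung samples was not tested.

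Members with little frozen signal reached levels near those of these organ genes, a description that rests on choosing genes by their frozen level. The 14 members under 1 CPM in FR liver had a median of 2.99 CPM in FR > FFPE and 23.7 in FFPE. All 863 genes under 1 CPM had medians of 1.19 and 9.89, and 6 brain and muscle genes 4.28 and 21.0. In lung the 5 members under 1 CPM had medians of 72.5 and 33.4 CPM, all 730 such genes 0.736 and 0.837, and 5 brain and muscle genes 35.9 and 29.4. The 17 lung members at 10 CPM or more in FR had a median ratio of FR > FFPE to FR of 1.37 (0.404 to 12.2), against 1.38 for all 1626 such genes. For FFPE to FR in lung the medians were 1.49 and 1.36. The 8 liver members at 10 CPM or more in FR had median ratios of 1.16 in FR > FFPE and 2.74 in FFPE. All 1278 such liver genes had 1.27 and 1.85. Whether the embedded signal of the weak members comes from their transcripts or from the probes themselves was not tested, since no library without target RNA was analysed here.

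**Figure D4:**
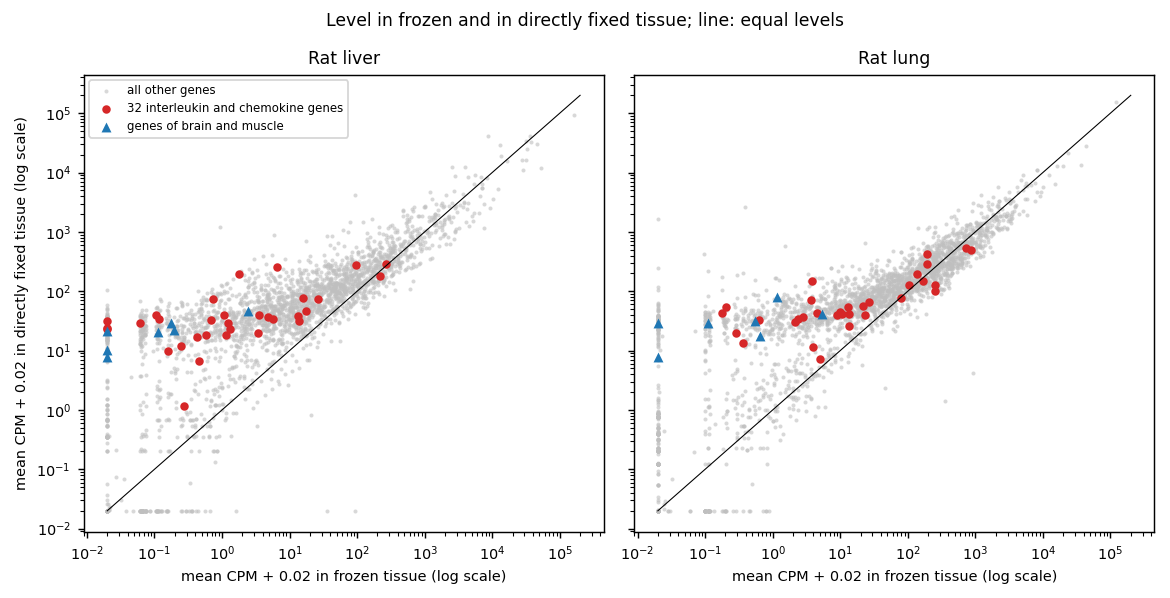
Mean CPM of each gene in frozen (horizontal) and directly fixed tissue (vertical), both on log scales with 0.02 added, for liver and lung. Red points are the 32 members, blue triangles the brain and muscle genes and grey points all others, with the line at equal levels. Most members under 1 CPM in frozen tissue sit between 10 and 100 CPM in fixed tissue beside the blue triangles, and members above 100 CPM lie closer to the line.

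Markers of other cell types moved too. Ptprc, the common leukocyte antigen, had medians of 2.00, 14.1 and 102 CPM in FR, FR > FFPE and FFPE liver and 44.6, 189 and 145 CPM in lung. The 5 lymphocyte genes with counts of 10 listed summed to 6.68 to 13.5, 21.6 to 56.7 and 58.4 to 315 CPM in liver, and 4 and 5 of them rose against FR. In lung the medians of their sums were 224, 313 and 310 CPM, and 3 and 2 of them rose. The 4 macrophage genes of 10 summed to medians of 60.6, 45.9 and 94.4 CPM in liver and 379, 230 and 216 in lung, and 2 of 3 tested fell against FR in all 4 comparisons, in liver none of them on column totals. The 2 granulocyte genes of 7 had medians of 86.6, 56.4 and 95.9 CPM in liver and 2814, 1140 and 1874 in lung. None rose in the comparisons with FR. In lung 2 fell in FR > FFPE and 2 in FFPE, and 2 and 1 on column totals. In liver 2 and 1 fell, and none on column totals. The 3 endothelial genes of 6 had medians of 276, 337 and 506 CPM in liver, and the 3 fibroblast and smooth muscle genes 286, 2103 and 1255 CPM, of which 2 rose. In lung the medians were 6443, 6661 and 6394 CPM and 1404, 5085 and 4969 CPM. With TMM, 2 fibroblast and smooth muscle genes rose and 1 endothelial gene fell in each lung comparison. Lamp3 fell in lung, from a median of 7919 CPM in FR to 1912 and 3309 (log2 change -2.70 and -1.95, called on both scalings). In liver Lamp3 rose in both comparisons, from a median of 0 to 3.86 and 4.20 CPM. The 11 hepatocyte genes summed to medians of 156, 1476 and 1024 CPM in FR, FR > FFPE and FFPE lung. In liver their sums fell, with medians of 279313, 233336 and 149063 CPM. Against FR, 4 and 9 of the 11 fell in liver with TMM, and 4 and 4 on column totals. Over all tested genes 33.6% to 39.9% rose and 16.3% to 24.4% fell with TMM in the 4 comparisons with FR. The part of these cell types in the members' changes was not tested.

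Lung and liver were compared next, in 1 fit over both tables. In FR, 17 of 32 members were higher in lung and 2 in liver, against 40.1% and 23.3% of 2374 tested genes. The median log2 difference was 1.63 over members and 0.65 over all genes. On column totals 23 were higher and 1 lower, with a median of 2.10 over all genes, and with the size factors of DESeq2 14 were higher and 6 lower, with a median of 0.02. CC chemokines led, with 10 of 12 higher in lung. Ccl11 differed most, at 254 ± 45.9 CPM (SD, n = 5) in lung and 0.23 ± 0.43 (SD, n = 6) in liver, 8.37 apart on the log2 scale (SE 0.45, adjusted p = 6.28e-20 by edgeR).

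Other members were also far apart in frozen tissue. Ccl17 had 120 counts in FR lung and 2 in FR liver, and Il11 had 23 and 0, at least 14.7-fold higher in lung. Ccl7 differed by 3.39 (SE 0.56), Il2rg by 3.38 (SE 0.30), Ccl5 by 3.03 (SE 0.27), Ccl21 by 3.04 (SE 0.31) and Il18 by 2.72 (SE 0.17) on the log2 scale. Ccl12 was called at 1.61 and not without FR lung library 50 (0.78, edgeR adjusted p = 0.28). Cxcl12 was higher in liver, with 221 ± 24.9 CPM (SD, n = 6) against 104 ± 11.8 (SD, n = 5) in lung (-2.60, SE 0.19). Il10 was also called higher in liver (-2.36, SE 0.66), from 26 counts against 7, and not on column totals (-0.91, adjusted p = 0.221). No fold is given for Cxcl1, Il20 and Il36g, which had 3 counts or fewer in both tissues.

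In FR > FFPE, 19 of 32 members were higher in lung and 1 lower, against 39.0% and 20.7% of all genes. Median differences were 1.09 over members and 0.65 over all genes. With DESeq2 size factors 9 were higher and 2 lower, and on column totals 29 and 0. The tissues drew closer for Ccl11, whose difference fell to 1.24 (SE 0.27), from 118 against 15.5 CPM. Ccl21 stayed at 3.44 (SE 0.31) and Cxcl12 at -2.54 (SE 0.18, not past the fold criterion on column totals, -0.86). After Ccl21, the largest called differences towards lung were those of Cxcl16, Il2rg, Il11 and Ccl22. Their mean CPM in lung and liver were 13.8 against 0.614, 330 against 23.6, 32.3 against 2.55, and 40.7 against 3.40 in turn. Cxcl16 had 10 counts in FR > FFPE liver.

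The interaction of tissue and preservation, lung minus liver change from FR to FR > FFPE, was called for 11 of 32 members. It was positive for 3 and negative for 8, against 13.7% and 15.6% of all tested genes. Ccl11 had the largest, at -7.13 (SE 0.55, edgeR adjusted p = 7.55e-14), followed among negative ones by Ccl17 (-2.90, SE 0.75, from 2 counts in FR liver), Ccl7 (-2.26, SE 0.69), Ccl4 (-1.96, SE 0.57), Ccl5 (-1.73, SE 0.37) and Il18 (-1.65, SE 0.24). Il2rg (-1.20) and Il13ra1 (-1.14) were not called on column totals. The positive ones were Il10 (3.44, SE 0.74, adjusted p = 0.000289), Il36b (1.54, SE 0.51) and Il1a (1.38, SE 0.37). Over all 32 genes the order of mean CPM in lung and liver had a Spearman rho of 0.769 in FR, 0.874 in FR > FFPE and 0.753 in FFPE, as a description across genes that share probes and library chemistry.

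**Figure D5:**
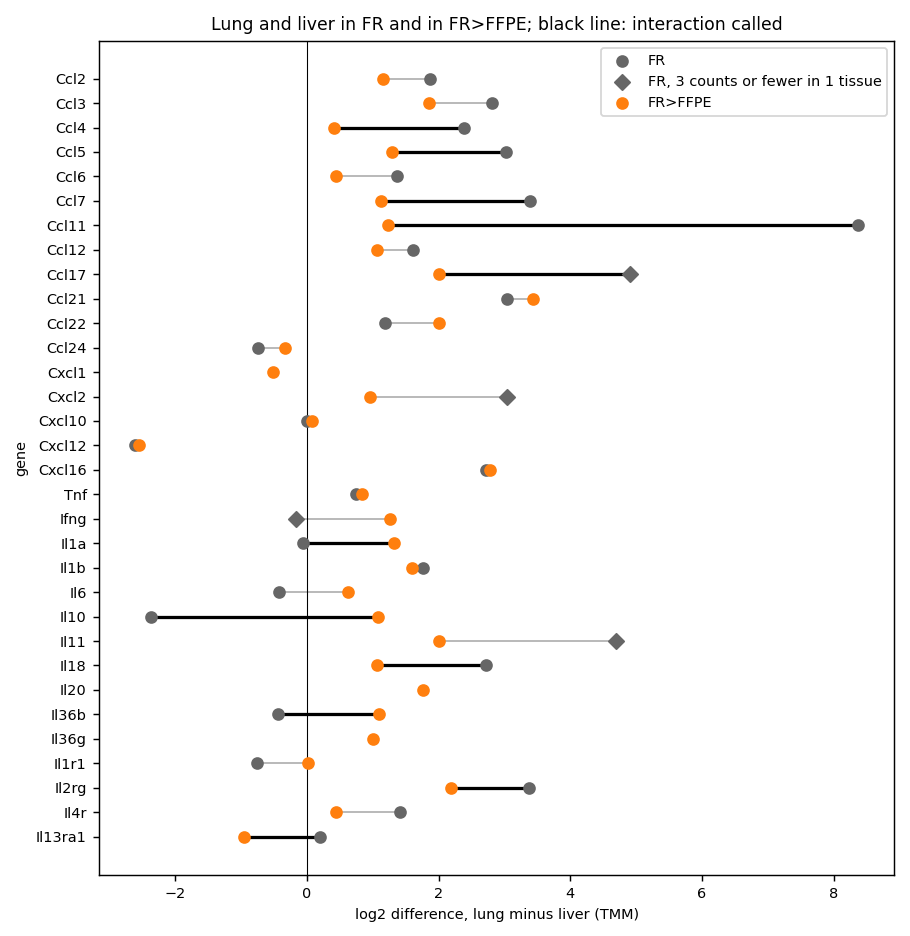
Log2 difference of lung minus liver (TMM) for each gene in FR (grey) and FR > FFPE (orange), joined by a black line where the interaction was called. Grey diamonds have 3 counts or fewer in 1 frozen tissue, and genes at or under 3 counts in both have no grey point. Ccl11 moves from 8.37 to 1.24, while Ccl21 and Cxcl12 keep their places.

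Other genes of these pathways were counted from a list of 74, of which 42 held counts. Against FR, 10 of 38 tested rose and 4 fell in FR > FFPE liver, 14 rose and 12 fell in FFPE liver, 10 of 39 rose and 6 fell in FR > FFPE lung, and 7 rose and 7 fell in FFPE lung. The shares that rose, 26.3%, 36.8%, 25.6% and 17.9%, stand beside 33.6%, 39.9%, 37.8% and 36.2% of all tested genes, and the shares that fell, 10.5%, 31.6%, 15.4% and 17.9%, beside 16.3%, 24.4%, 18.3% and 17.1%. Their median log2 changes of 0.33, 0.55, -0.16 and -0.50 compare with 0.37, 0.35, 0.35 and 0.24 over all genes. On column totals the pairs were 19 and 1, 26 and 0, 14 and 0, and 12 and 0, so nearly all falls were lost. Sele and Selp, the selectins of activated endothelium, rose in all 4 comparisons, with Selp at 5.58 (SE 0.51) in FR > FFPE lung and 4.83 (SE 0.53) in FFPE lung from 8 counts in FR lung. Ccr1, the receptor of Ccl3 and Ccl5, rose by 4.56 (SE 0.33) and 3.66 (SE 0.35) in lung. Tlr4, the endotoxin sensor, rose by 3.66 (SE 0.42) and 4.75 (SE 0.43) in liver, from 10 counts in FR. Socs1, an inhibitor of cytokine signalling, rose by 2.13 (SE 0.36) and 1.37 (SE 0.37) in lung. These rises were also called on column totals.

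The falls with TMM that follow were not called on column totals. Nfkbib, an inhibitor of NF-kB, changed by -1.09 and -1.27 in liver and -1.25 and -1.38 in lung, and by -0.39, 0.30, -0.57 and -0.68 on column totals. Nfkb1, a subunit of NF-kB, changed by -1.60 in FFPE liver and by -0.03 on column totals, and Rela, another, by -1.14 and 0.45. Icam1, an adhesion molecule induced by NF-kB, changed by -1.47 in FFPE lung and -0.73 on column totals, and Socs2 by -1.13 and -0.40. Between frozen tissues 28 of 40 tested pathway genes were higher in lung and 0 in liver, and in FR > FFPE 23 and 0. Over all tested genes 40.1% were higher in lung and 23.3% in liver in FR, and 39.0% and 20.7% in FR > FFPE. On column totals the pathway counts were 38 and 0 in FR and 37 and 0 in FR > FFPE, and with DESeq2 23 and 2, and 18 and 2.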

How the data were processed

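Expression was measured by TempO-Seq with the rat s1500+ probe panel, and 35 of 36 rat libraries were analysed. The submitters' processing notes name CASAVA 1.8.2, STAR 2.5.3a, Partek and the build rn6. The authors deposited 1 table of raw gene counts per rat tissue, treated as estimated counts rather than plain counts because 99.3% (liver) and 99.2% (lung) of values were whole within 0.001. They were rounded for count tests. The authors also deposited log2 tables of normalized CPM, used only for an alternative with limma 3.58.1. They list 2043 and 2192 genes, and 23 and 31 of the 32 members. The rat design was taken from the labels, and the study's threshold of adjusted p under 0.05 and 2-fold change was kept.

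Counts were fitted with edgeR 4.0.16 (R 4.3.3) by the quasi-likelihood test with TMM and filterByExpr, over all genes of a table, and over both tables for tissue comparisons. CPM used column totals. SE is the log2 change divided by the square root of F. Fold bounds used a floor of 3 counts over the group. On simulated data with 200 genes changed 4-fold, 99.5% were recovered in liver FR > FFPE vs. FR, with 0 false calls. In lung FR > FFPE vs. FR and in lung vs. liver in FR > FFPE, 100% were recovered, with 6 and 2 false calls. The simulation used a shared mean profile, a fixed dispersion and balanced rises and falls. It therefore cannot judge the choice of scaling or the calls of the sparsest members. No replicates matched within sampling noise (smallest chi-square per degree of freedom 2.56).

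Named genes were the 10 largest calls per within-tissue comparison, the 8 highest members in FR, the 5 highest in FFPE among those under 1 CPM in FR, the 5 largest tissue differences each way, and a fixed set led by Tnf, Ifng and Il6. The remaining members were named after their values were seen, so that each of the 32 is accounted for. The members and lists were chosen with earlier results of these data known. Alternatives were other scalings, DESeq2 1.42.0, limma, no filter, thinning to 139475 counts and left-out libraries.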

Additional observations from a re-analysis of the deposited data

Results flagged for a closer look

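In 31 of 189 sets of 1 member in 1 group, a library stood far from the rest of its group by Dixon's test at 95%. The chance rate of about 1 in 20 holds for normal values, which CPM from few counts need not be. A group with counts in only 1 library is always flagged. The 31 flags are therefore not read as an excess over chance. In FR > FFPE liver, library 78 was flagged as far highest for 7 members: Ccl3 at 12.83 CPM, Ccl22 at 9.46, Cxcl2 at 7.77, Il10 at 20.26, Il11 at 11.14, Il20 at 27.02 and Il36g at 19.93. Library 78 was also the highest for other members without a flag, such as Ccl2 at 15.5 CPM and Il1a at 36.8 CPM. Il18 was highest in library 77 (20.11 CPM) and Il1r1 in library 75 (23.65 CPM). In FFPE liver, library 82, the shallowest, was flagged as far highest for 8 members: Ccl4 at 43.02 CPM, Ccl11 at 35.85, Ccl17 at 114.72, Cxcl1 at 71.7, Cxcl2 at 86.04, Il1b at 136.23, Il18 at 78.87 and Il36g at 64.53. Flagged or not, library 82 was the highest for 20 of 30 members with at least 20 counts over the group.

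In FR liver the far values rest on 1 to 4 counts: Ccl11 at 1.06 CPM in library 71, Ccl17 at 0.50 and Cxcl1 at 0.25 in library 69, and Ifng at 0.83 in library 70. In FR > FFPE lung, library 59 was flagged as highest for Ccl7 (123.68 CPM), Ccl22 (105.22) and Il2rg (580.36), and library 60 for Cxcl10 (90.94). In FFPE lung, library 61 was flagged as highest for Ccl22 (110.97 CPM), Ccl24 (133.61) and Il1a (113.23). In FR lung, library 52 was lowest for Ccl4 (5.46 CPM), and Il20 at 0.80 in library 50 and Il36g at 0.92 in library 49 were the only libraries with counts.

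For 11 members the change from FR to FR > FFPE differed between lung and liver by the interaction test of edgeR. The log2 differences were -7.13 for Ccl11, -2.90 for Ccl17, -2.26 for Ccl7, -1.96 for Ccl4, -1.73 for Ccl5, -1.65 for Il18, -1.20 for Il2rg, -1.14 for Il13ra1, 1.38 for Il1a, 1.54 for Il36b and 3.44 for Il10.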

How the results depend on the processing

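No paired analysis was possible because each rat library carries its own number and the labels name no animal. Of 1570 alternative values for called single genes, 1495 kept their call and direction, 72 lost the call and 3 turned. This total includes 156 values from dropping the fold criterion in the same fit, where no call can be lost. Another 72 came from putting back the left-out frozen lung library, and all kept their call. Genes that an alternative did not test were not counted. After thinning, 49 kept their call, 13 lost it and 1 turned. Il13ra1 in FFPE vs. FR liver turned to 0.08 on column totals and 0.08 with limma on the log2 table, and the interaction of Il18 to 0.17 after thinning. Thinning every library to the smallest of its fit left fewer members to test, 4 in liver, and calls fell to 0 in FR > FFPE vs. FR, 2 in FFPE vs. FR and 2 in FFPE vs. FR > FFPE. In lung they fell to 13, 11 and 3 of 20 tested, in lung vs. liver to 9 (FR) and 10 (FR > FFPE), and in the interaction to 1. With limma, 14 members were called in FR > FFPE vs. FR liver, from 23 listed. Without the fold criterion 12 were called in FFPE vs. FR > FFPE lung, and with DESeq2 11 in lung vs. liver in FR > FFPE.

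Leaving out each FR lung library in turn gave 22 to 24 calls in FR > FFPE vs. FR lung, 19 to 21 in FFPE vs. FR lung, 18 to 19 in lung vs. liver in FR and 11 to 12 in the interaction. The median number of members detected was 24, 32 and 31 in FR, FR > FFPE and FFPE liver and 29, 32 and 32 in lung. At a minimum of 3 counts it was 18.5, 30.5 and 29.5 in liver and 27, 32 and 32 in lung, and after thinning 11.5, 20 and 29 in liver and 22, 30.5 and 30 in lung. Libraries 78, 82, 59, 61 and 63 were left out in alternatives chosen after seeing the data.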
